A study of Bos taurus with 10 samples.

Results

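Innate sensors and inflammatory cytokines, 6 genes in all, were followed in cattle blood, chosen by gene identity. They are among the 24616 Ensembl genes in the deposited tables and are named by Ensembl identifier, with the symbol taken from the definition of the gene set. The receptors are TLR2 (ENSBTAG00000008008), TLR4 (ENSBTAG00000006240) and CD14 (ENSBTAG00000015032). The cytokines are IL1B (ENSBTAG00000001321), TNF (ENSBTAG00000025471) and CXCL8 (ENSBTAG00000019716). Poly(A) RNA was sequenced from 10 pools of blood, each mixed from 3 animals. The 5 control pools came from animals without the supplement, and the 5 supplemented pools from animals given a mineral supplement meant to raise copper. The average copper level of the animals in a pool, recorded without a unit, was 23.42 to 95.61 in control pools 1 to 5 and 95.48 to 342.42 in supplemented pools. Breed, sex, age, dose and length of treatment are not stated in the labels, and a pool hides the differences among its 3 animals.

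Toll-like receptors are sensors on innate immune cells that bind conserved parts of microbes. TLR2 binds bacterial lipopeptides together with a partner receptor, and TLR4 binds the lipopolysaccharide of Gram-negative bacteria, which CD14 hands over to it. Both receptors signal through the adaptor MyD88 to NF-kappa B, which switches on the genes of interleukin 1 beta (IL1B), tumour necrosis factor (TNF) and the neutrophil attractant interleukin 8 (CXCL8). In blood these transcripts come mainly from monocytes and neutrophils. The receptors are carried by resting cells, whereas the cytokine transcripts are made quickly on stimulation and decay quickly.

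Depth was 24487010 to 32663198 counts per library, and all 6 genes passed the filter on low counts that left 12932 genes. Sense counts were 961 to 1953 for TLR2, 1117 to 1817 for TLR4, 572 to 1122 for CD14, 2267 to 6529 for IL1B, 309 to 680 for TNF and 87 to 252 for CXCL8. Counting error is therefore widest for CXCL8, where the mean count alone gives a coefficient of variation of 7.98%, against 1.59% for IL1B. Levels below are CPM, counts scaled to library size with TMM. Transcript lengths were not used, so levels are compared between pools of a gene and not between genes. In blood a lower level can mean fewer cells of a type or less RNA per cell, and these cannot be told apart.

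None of the 3 receptors separated the groups. TLR2 was measured at 45.6, 51.0, 41.1, 57.8 and 55.5 CPM in control pools 1 to 5 and at 51.6, 60.0, 54.3, 52.1 and 52.2 CPM in supplemented pools 1 to 5. All 5 supplemented pools lay above the control median of 51.0 CPM, but control pools 4 and 5 were higher than 4 of them, so the groups overlapped. The mean was 50.2 ± 6.89 CPM in the control group and 54.0 ± 3.51 CPM in the supplemented group (SD, n = 5 each). TLR4 was at 52.4, 62.6, 47.8, 49.8 and 51.6 CPM in control pools 1 to 5 and at 57.8, 57.8, 68.7, 57.3 and 49.3 CPM in supplemented pools 1 to 5. Supplemented pool 3 was the highest and supplemented pool 5 lay among the low controls. The TLR4 mean was 52.8 ± 5.72 CPM in the control group and 58.2 ± 6.88 CPM in the supplemented group (SD, n = 5 each).

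CD14, the surface protein that delivers lipopolysaccharide to TLR4, had a wider range between pools than the Toll-like receptors. It was at 24.5, 22.9, 27.7, 20.8 and 31.9 CPM in control pools 1 to 5 and at 27.0, 28.2, 39.4, 23.1 and 27.3 CPM in supplemented pools 1 to 5. Supplemented pool 3 again stood highest, and the other 4 supplemented pools lay inside the control range. The means were 25.5 ± 4.34 CPM and 29.0 ± 6.13 CPM (SD, n = 5 each). From the lowest to the highest pool CD14 differed 1.90-fold, against 1.46-fold for TLR2 and 1.44-fold for TLR4.

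IL1B and CXCL8 had the widest ranges over the 10 pools. IL1B, the precursor of a fever-inducing cytokine, was at 123, 258, 97.1, 110 and 104 CPM in control pools 1 to 5. It was at 144, 181, 142, 185 and 110 CPM in supplemented pools 1 to 5. Control pool 2 was the highest of all 10 pools, while the other 4 controls lay below 4 of the 5 supplemented pools. The IL1B mean was 138 ± 67.7 CPM in the control group and 153 ± 31.0 CPM in the supplemented group (SD, n = 5 each). CXCL8, which draws neutrophils out of the blood, was at 6.78, 6.25, 6.25, 3.07 and 4.69 CPM in control pools 1 to 5. In supplemented pools 1 to 5 it was at 5.14, 7.69, 5.24, 10.2 and 3.25 CPM. Both the highest and the second lowest CXCL8 value were in supplemented pools, and the means were 5.41 ± 1.52 CPM and 6.30 ± 2.68 CPM (SD, n = 5 each).

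TNF, a cytokine that activates endothelium and leukocytes, varied less than the other cytokines. It was at 13.8, 20.3, 13.2, 17.7 and 19.3 CPM in control pools 1 to 5 and at 17.0, 17.3, 15.3, 15.9 and 14.7 CPM in supplemented pools 1 to 5. All 5 supplemented pools lay below the control median of 17.7 CPM and inside the control range. The TNF mean was 16.9 ± 3.21 CPM in the control group and 16.0 ± 1.07 CPM in the supplemented group (SD, n = 5 each). From the lowest to the highest pool TNF differed 1.53-fold, IL1B 2.66-fold and CXCL8 3.32-fold.

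**Figure D1:**
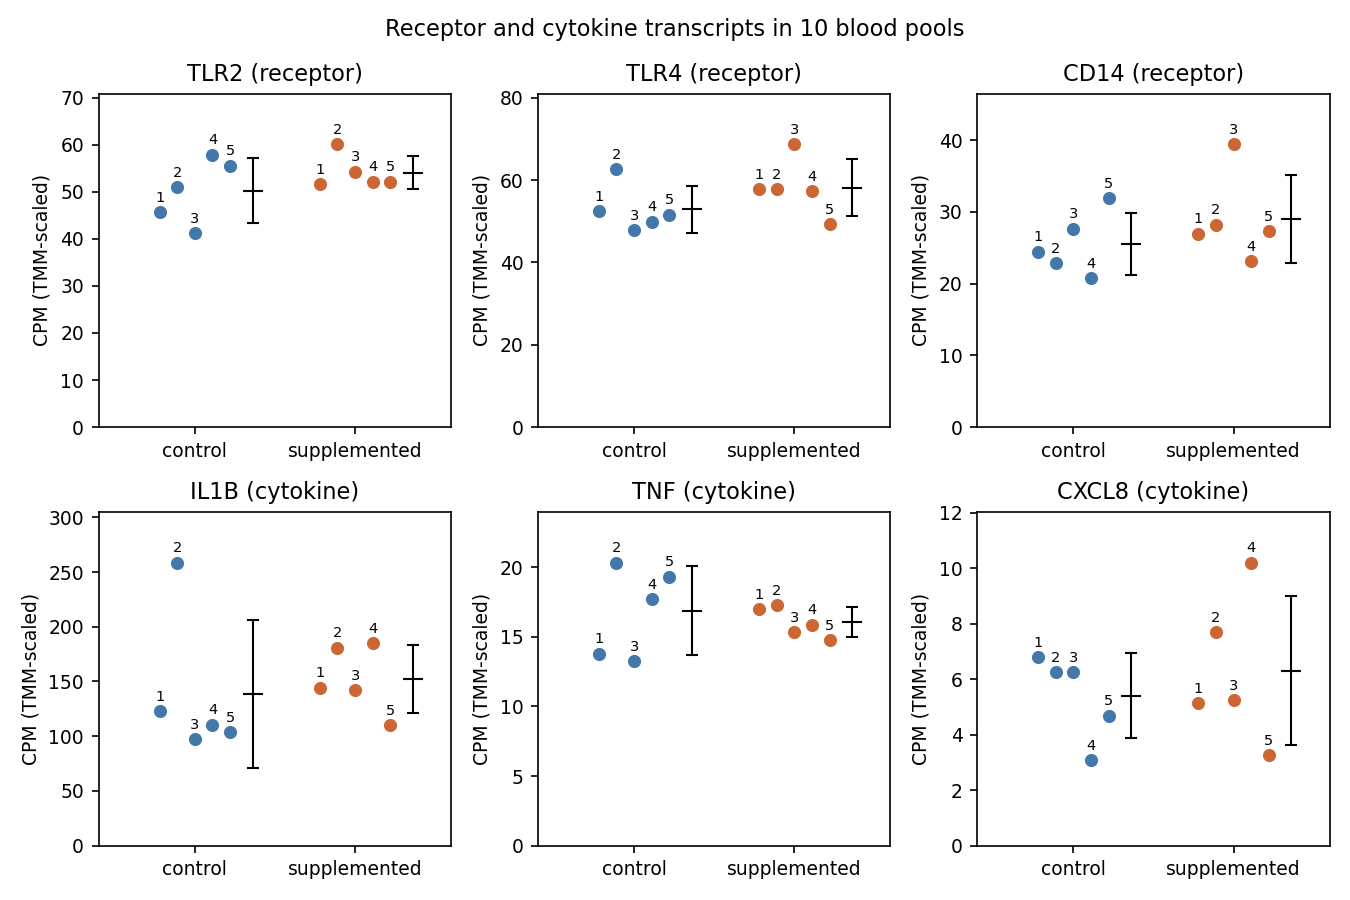
CPM (TMM-scaled, linear axes from 0) of the 3 receptors and 3 cytokines, with 1 point per pool, numbered by pool, and the mean ± SD of each group (n = 5) as a black bar to the right of the points. The groups overlap for each of the 6 genes, and control pool 2 stands at 258 CPM for IL1B.

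The spread beyond counting error was put on one scale as the biological coefficient of variation, which edgeR estimates per gene from the pools of both groups. It was 13.4% for TLR2, 13.5% for TLR4 and 18.3% for CD14, against a median of 19.2% over the 12932 genes tested. For TNF it was 16.9%, for IL1B 27.6% and for CXCL8 32.3%. The Toll-like receptors were thus among the steadier transcripts of these pools, with 12.2% and 13.1% of genes below TLR2 and TLR4. IL1B lay above 78.9% and CXCL8 above 88.0% of the genes. These places are descriptions, since the estimate also depends on how abundant a gene is.

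The first comparison asked whether the supplemented pools differed from the controls. Of the 6 genes, 0 passed the threshold of 0.05 (quasi-likelihood test of edgeR, Benjamini-Hochberg over all 12932 genes), where 0% of all genes passed. At an unadjusted p under 0.05 there were also 0 of the 6, where 1.97% of all genes lay. DESeq2's Wald test called 0 of the 6, and 0.00774% of all genes. Limma's voom called 0 of the 6, and 0% of all genes. The groups did not overlap for 0 of the 6 genes, against 0.278% of all genes. Fitted log2 fold changes were above 0 for 5 of the 6, with a median of 0.14 beside -0.01 over all genes tested. Limma's voom put CXCL8 on the other side of 0, at -0.048, as did leaving out supplemented pool 4, at -0.014, and TNF turned without control pool 2, at 0.0015.

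Among the receptors the fitted log2 fold change, supplemented against control, was 0.11 ± 0.11 (SE) for TLR2, 0.14 ± 0.11 for TLR4 and 0.18 ± 0.16 for CD14. Among the cytokines it was 0.14 ± 0.25 for IL1B, -0.07 ± 0.14 for TNF and 0.22 ± 0.29 for CXCL8. The adjusted p was 1.00 for each (edgeR), and the smallest unadjusted p was 0.226, for TLR4. The size of difference these pools could have hidden can be read from the 95% intervals. The interval of the ratio of supplemented to control level was 0.92 to 1.26 for TLR2, 0.94 to 1.30 for TLR4, 0.90 to 1.43 for CD14 and 0.77 to 1.17 for TNF. It was wider for the variable cytokines, 0.76 to 1.59 for IL1B and 0.76 to 1.81 for CXCL8. With all 10 pools the 6 intervals excluded a 2-fold difference in either direction, and those of the 3 receptors and of TNF also excluded 1.5-fold. With 1 pool left out, the exclusion of 1.5-fold held in all 10 fits for TLR2, TLR4 and TNF. For CD14 it was lost without control pool 5 (upper limit 1.54) or supplemented pool 4 (upper limit 1.52). The exclusion of 2-fold was lost for CXCL8 without control pool 1 (upper limit 2.00) and held in all 10 fits for the other 5 genes. These intervals are not adjusted for the number of genes.

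**Figure D2:**
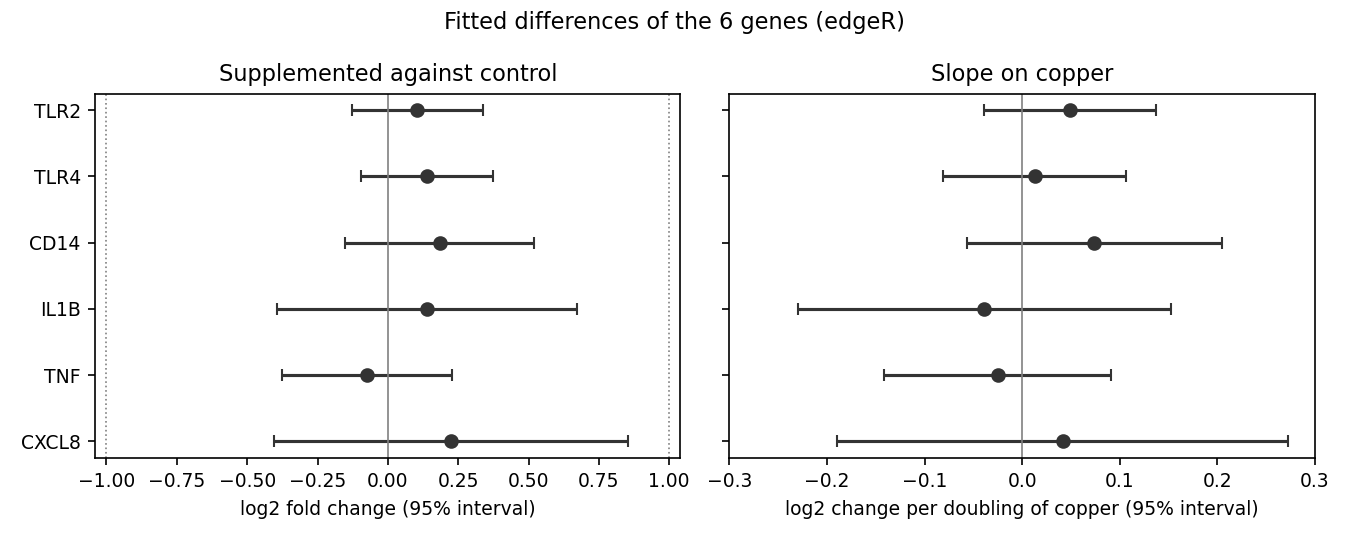
Fitted log2 fold change of supplemented against control pools (left, dotted lines at a 2-fold change) and log2 change per doubling of copper (right) for the 6 genes, with 95% intervals from edgeR over 10 pools. All 12 intervals include 0, and on the left all 6 lie between the dotted lines.

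The fitted size of the IL1B difference depended most on a single control, although IL1B did not pass the adjusted threshold with or without it. Without control pool 2 the log2 fold change became 0.49 ± 0.15 (SE), with a 95% interval of 0.17 to 0.82. Its unadjusted p was then 0.00642 and its adjusted p 1.00 (edgeR, 13024 genes), and 2.99% of genes had an unadjusted p under 0.05 in that fit. Leaving out any other pool gave IL1B a log2 fold change of 0.04 to 0.24. Control pool 2 is singled out here because its own IL1B level was extreme. The interval and p without it are therefore descriptions and no test of a group difference. In control pool 2 TNF was also the highest of the 10 pools, at 20.3 CPM, and TLR4 the second highest, at 62.6 CPM. CD14 in that pool, at 22.9 CPM, was below the control median of 24.5 CPM. The copper level of control pool 2, 24.58, was close to the 23.42 of control pool 1, in which IL1B was at 123 CPM. The library of control pool 2 had 8.84% unmapped reads, within the range of 7.77 to 16.7% over the 10 libraries.

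The second comparison asked whether transcripts followed the copper level across all 10 pools. Of the 6 genes, 0 passed the adjusted threshold (slope on log2 copper, quasi-likelihood test of edgeR), where 0% of all genes passed, and 0 lay under an unadjusted p of 0.05, where 2.66% of all genes lay. DESeq2 called 0 of the 6, against 0.0541% of all genes, and limma's voom 0 of the 6, against 0%. Per doubling of copper the fitted change was 0.05 ± 0.04 log2 units (SE) for TLR2, 0.01 ± 0.04 for TLR4 and 0.07 ± 0.06 for CD14. It was -0.04 ± 0.09 for IL1B, -0.03 ± 0.05 for TNF and 0.04 ± 0.11 for CXCL8, each with an adjusted p of 1.00 (edgeR). The median slope of the 6 was 0.03, beside -0.0010 over all genes. Group and copper level are tied by design, so this comparison reads the same pools a second time.

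Over the 3.87 doublings from the lowest to the highest copper level, the fitted change was 0.19 log2 units for TLR2 (95% interval -0.15 to 0.53) and 0.05 for TLR4 (-0.31 to 0.41). For CD14 it was 0.29 (-0.22 to 0.79) and for TNF -0.10 (-0.55 to 0.35). For IL1B it was -0.15 (-0.89 to 0.59) and for CXCL8 0.16 (-0.73 to 1.05). With all 10 pools, a 2-fold change over the whole range of copper was outside the intervals of 5 genes and just inside that of CXCL8. These limits are given for the full set of pools only. The IL1B slope ranged from -0.11 to 0.14 per doubling with 1 pool left out, so its limits depend on single pools. The sign of the IL1B slope turned without control pool 2, to 0.14 ± 0.07 (SE). The sign of the TNF slope turned without the same pool, to 0.03 ± 0.06 (SE). For CXCL8 it turned without supplemented pool 4, the pool with the highest copper level, to -0.11 ± 0.11 (SE). For TLR4 it turned without supplemented pool 3, to -0.0079 ± 0.04 (SE). Limma's voom also turned the slopes of CXCL8, to -0.066, and TLR4, to -0.0036, and copper on a linear scale turned that of IL1B, to 0.0082 per 100.

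**Figure D3:**
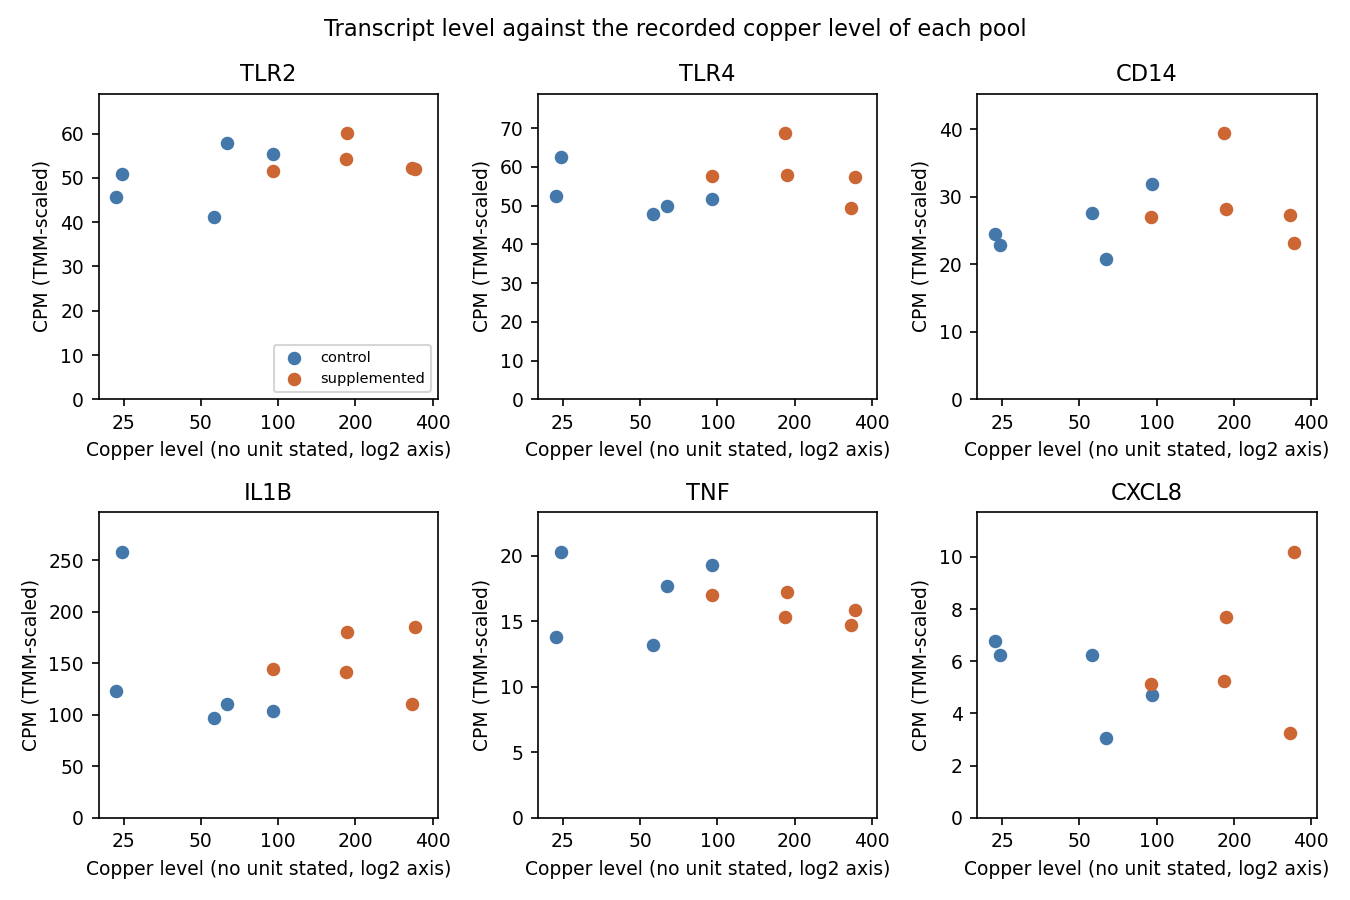
CPM (TMM-scaled) of each of the 6 genes against the recorded copper level of the pool (log2 axis, no unit stated), with 1 point per pool. TLR2 lies between 41.1 and 60.0 CPM over the whole range, and at the highest copper levels, 330.75 and 342.42, CXCL8 takes both 3.25 and 10.2 CPM.

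Pools at nearly the same copper level could differ in cytokines and in receptors. Supplemented pools 4 and 5 had copper of 342.42 and 330.75. CXCL8 was at 10.2 CPM in the former and 3.25 CPM in the latter, and IL1B at 185 and 110 CPM. In the same order TLR2 was at 52.1 and 52.2 CPM, TLR4 at 57.3 and 49.3 CPM, CD14 at 23.1 and 27.3 CPM and TNF at 15.9 and 14.7 CPM. Supplemented pools 2 and 3 had copper of 185.99 and 183.61. There CD14 was at 28.2 and 39.4 CPM, IL1B at 181 and 142 CPM and CXCL8 at 7.69 and 5.24 CPM, so that the wider gaps were not the cytokines' alone. In these 2 pools TLR2 was at 60.0 and 54.3 CPM, TLR4 at 57.8 and 68.7 CPM and TNF at 17.3 and 15.3 CPM. Across the groups, the nearest copper levels were 95.61 in control pool 5 and 95.48 in supplemented pool 1. The ratio of supplemented pool 1 to control pool 5 was 0.93 for TLR2, 1.12 for TLR4 and 0.85 for CD14. For the cytokines it was 1.39 for IL1B, 0.88 for TNF and 1.10 for CXCL8. With 1 pool on each side the 3 pairs have no test.

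With group and log2 copper in 1 model, 0 of the 6 genes passed for either term and 0 lay under an unadjusted p of 0.05 (edgeR). All genes gave 0% past the adjusted threshold for both terms, and 1.59% and 1.31% under an unadjusted p of 0.05 for the copper and the group term. DESeq2 called 0 of the 6 for either term, against 0.00773% of all genes for copper and 0% for group, and limma's voom 0 of the 6, against 0% for both. IL1B had the smallest unadjusted p of the 6 for both. The fitted group term of IL1B at a given copper level was 0.84 ± 0.43 (SE) log2 units (edgeR unadjusted p = 0.0737, adjusted p = 1.00). Copper levels of the groups meet only at 95.48 to 95.61, in 1 pool of each. The term therefore rests on the fitted slope and is not a difference measured at matched copper. The slope of IL1B, taken as common to both groups, was -0.30 ± 0.15 per doubling (SE; edgeR unadjusted p = 0.079, adjusted p = 1.00). Without control pool 2 that slope became -0.06 ± 0.11 (SE) and the group term 0.61 ± 0.27 (SE). The next gene, TLR4, had a group term of 0.35 ± 0.19 (SE) and a slope of -0.10 ± 0.07 (SE).

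Slopes were then fitted apart in each group, a fit chosen after the data had been seen. Among control pools IL1B had a slope of -0.49 ± 0.18 per doubling of copper (SE), with an unadjusted p of 0.0198 and an adjusted p of 0.41 in edgeR, and 10.5% of all genes lay under an unadjusted p of 0.05 for this term. That slope rested on control pool 2, without which it was -0.12 ± 0.16 (SE; edgeR unadjusted p = 0.448, adjusted p = 0.897), with 5.26% of all genes under an unadjusted p of 0.05. Among supplemented pools its slope was 0.0082 ± 0.22 (SE), and 3.49% of all genes lay under an unadjusted p of 0.05 there. The difference between the slopes was 0.50 ± 0.29 (SE), with an unadjusted p of 0.11 and an adjusted p of 0.473 in edgeR, and 0.13 ± 0.22 (SE; edgeR adjusted p = 0.874) without control pool 2, where 8.30% of all genes had an unadjusted p under 0.05. For CXCL8 the slope was -0.31 ± 0.26 in control pools and 0.21 ± 0.31 in supplemented pools (SE), with a difference at an adjusted p of 0.602 in edgeR. The other 4 genes had adjusted p-values of 0.627 to 0.978 for the difference, and 13.2% of all genes lay under an unadjusted p of 0.05 for the difference.

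Receptors and cytokines were next set against each other pool by pool, as the mean deviation of the log2 CPM of each class from its genes' means over the 10 pools. The receptors deviated by -0.17 to 0.31 and the cytokines by -0.41 to 0.46 log2 units. The cytokines exceeded the receptors most in control pool 2, by 0.49, and in supplemented pool 4, by 0.47. They lay farthest below the receptors in supplemented pool 5, by -0.37, and in supplemented pool 3, by -0.35. The mean difference of cytokines from receptors was 0.02 ± 0.29 in the control group and -0.02 ± 0.36 in the supplemented group (SD, n = 5 each). Both groups thus held pools with cytokines high and low relative to the receptors. The gap in supplemented pool 3 came from the receptors, at 0.31, with the cytokines at -0.04. The cytokines did not move as 1 class in supplemented pool 4. There CXCL8 was at its highest, 10.2 CPM, and IL1B at its second highest, while TNF, at 15.9 CPM, was below its median of 16.4 CPM. No test is given for a score over chosen genes.

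Across the 10 pools the closest of the 15 pairs of genes was TLR4 with IL1B. They had a Pearson's r of 0.72 (permutation p = 0.018, adjusted over the 15 pairs 0.271) and a Spearman's rho of 0.81 (permutation p = 0.00729, adjusted 0.109). Most of the 15 pairs join a receptor with a cytokine, so the kind of the closest pair is no result. The r of other genes' pairs in these pools is not given, so the values have no background. Without the 2 most extreme pools by distance from the median TLR4 level r was 0.94. With the group means removed it was 0.70 (permutation p within groups 0.0361, adjusted 0.493). The pool farthest to the side of the others was supplemented pool 3, which had the highest TLR4, at 68.7 CPM, with IL1B at 142 CPM. Without that pool r was 0.95 (permutation p = 0.00027, adjusted 0.00405) over the other 9 pools. It was the only omission of a pool after which r of a pair passed the adjusted threshold. Taking out the pool that lies farthest off raises r, and the adjustment covers the 15 pairs but not the choice among omissions. This p is therefore a description and no test of the pair. Without control pool 2, the highest in IL1B, r was 0.69.

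TLR2 and TNF had the second highest r, 0.66 (permutation p = 0.0373, adjusted over the 15 pairs 0.28), with a rho of 0.50 (permutation p = 0.143, adjusted 0.656). Without the 2 most extreme pools by distance from the median TLR2 level r was 0.50, and it ranged from 0.47 to 0.82 when 1 pool was left out, lowest without control pool 3 and highest without control pool 2. No pair passed 0.05 after adjustment with all pools, and these were the pairs with an unadjusted permutation p of r under 0.05. IL1B and CXCL8 had an r of 0.55 (permutation p = 0.0986, adjusted 0.493) and a rho of 0.60 (permutation p = 0.0738, adjusted 0.553), and 0.49 without the 2 most extreme pools by distance from the median IL1B level. CD14 did not follow its partner TLR4 closely, with an r of 0.39 (permutation p = 0.271, adjusted 0.664) and a rho of 0.13 (permutation p = 0.734, adjusted 0.847). Without the 2 most extreme pools by distance from the median TLR4 level the r of CD14 with TLR4 was -0.12. Without supplemented pool 3 alone it was -0.20, and it stayed positive when any other single pool was left out. The positive r thus rested on supplemented pool 3. The rho of CD14 with TLR4 also turned below 0, to -0.02, without control pool 4 or without supplemented pool 2.

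**Figure D4:**
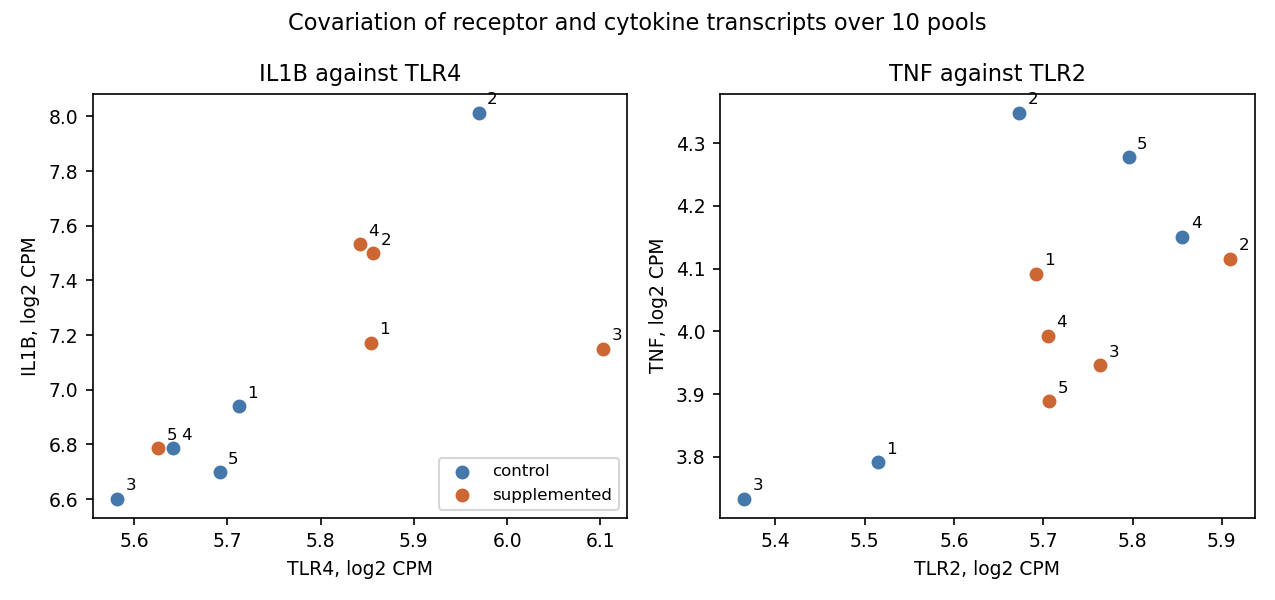
Log2 CPM of IL1B against TLR4 (left) and of TNF against TLR2 (right), with 1 point per pool, numbered within its group and coloured by group. The 5 pools highest in TLR4 are also the 5 highest in IL1B. Supplemented pool 3, at the far right of the left panel, has the highest TLR4 with IL1B at 142 CPM, and r over the 10 pools is 0.72 on the left and 0.66 on the right.

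The labels name no batch, so the genes were also set against 4 measures of the libraries, the shares of unmapped, unassigned and opposite-strand reads and the first principal component of all tested genes. Of the 24 relations 0 passed after adjustment for either coefficient. The closest was TLR2 with the first principal component, which held 33.5% of the variance between pools, at an r of 0.75 (permutation p = 0.00961, adjusted 0.231) and a rho of 0.75 (permutation p = 0.0179, adjusted 0.311). Without the 2 most extreme pools by distance from the median of the component r was 0.60. Without supplemented pool 3 it was 0.86 (permutation p = 0.00156, adjusted 0.0374), the only omission after which r of a relation passed. That adjustment covers the 24 relations and not the choice among omissions. The other 5 genes had an r of -0.43 (CXCL8) to 0.58 (TNF) with that component. For IL1B it was -0.08 (permutation p = 0.822), so no relation of IL1B to the main axis of the profiles was seen. So few pools cannot exclude one. The component was built from all tested genes, TLR2 among them, so it is not a measure independent of TLR2. The share of all tested genes with an r as high is not given, so the r of TLR2 is a description without a background. The count of 0 among the 24 relations has no such background either.

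Genes with a like profile are given by identifier alone, since the files pair none with a symbol. Of 12926 other genes, ENSBTAG00000019707 was nearest to the mean standardised profile of the receptors over the 10 pools, with an r of 0.91. ENSBTAG00000032021 was nearest to that of the cytokines, with an r of 0.93. Its level ranged from 89.7 to 138 CPM in controls and from 95.8 to 128 CPM in supplemented pools. Each is the highest of 12926 values, so these are descriptions.

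TNF differed from the other 5 genes in how its reads were placed. In a stranded library, reads from a gene fall on its own strand, and the counts above are those. On the opposite strand TNF had 24.4, 22.7, 25.4, 19.5 and 17.1% of the reads of both strands in control pools 1 to 5. In supplemented pools 1 to 5 it had 24.8, 21.5, 17.4, 21.6 and 22.1%. The other 5 genes had at most 2.22% in any pool, and over all libraries the share was 2.13 to 2.88%. Summed over the pools, the TNF share of 21.3% was above that of 96.9% of the genes tested.

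These opposite-strand reads over TNF, 85 to 162 per pool, did not separate the groups. Their mean share was 21.8 ± 3.46% in the control group and 21.5 ± 2.65% in the supplemented group (SD, n = 5 each). A two-sided exact permutation test gave p = 0.857, where the smallest possible is 0.00794. Tested as counts among the 6021 genes kept on that strand, their log2 fold change was 0.12 ± 0.19 (SE, adjusted p 0.983 in edgeR) and their slope 0.0019 ± 0.07 per doubling of copper (SE, adjusted p 1.00 in edgeR). In RefSeq's annotation of the later assembly ARS-UCD2.0, the long noncoding RNA gene LOC100847561 overlaps TNF, and LTB and LTA are its neighbours. The strand of that gene was not used here, and which transcripts gave these reads was not tested. TLR2 is overlapped by RNF175 in the same annotation and had 0.14 to 0.63% of its reads on the opposite strand. Counted without regard to strand, TNF reads include this share, and r of TLR2 with TNF was then 0.51 instead of 0.66.

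**Figure D5:**
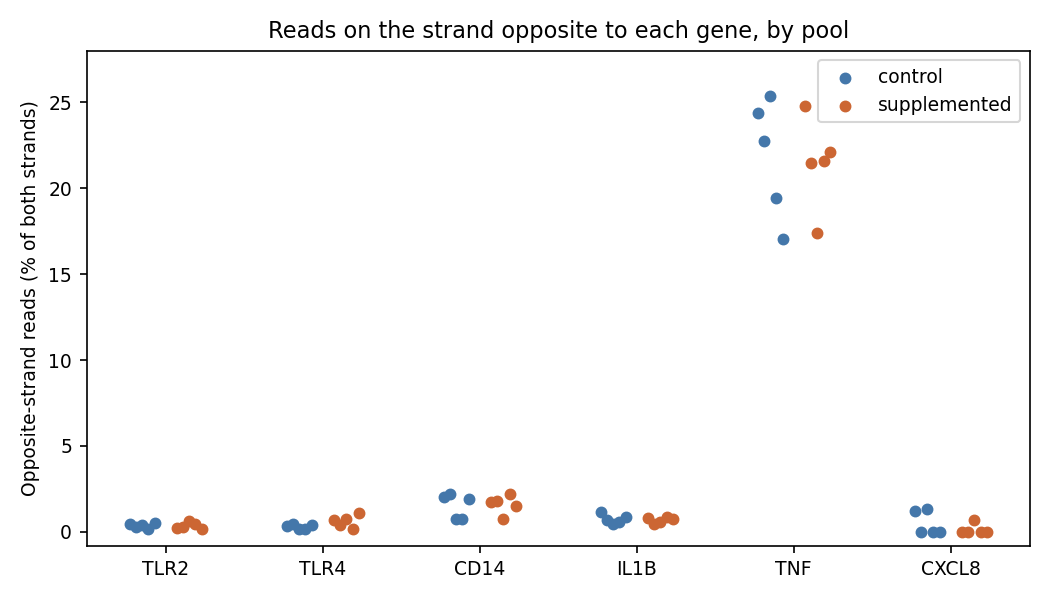
Share of reads on the strand opposite to each gene, in percent of the reads of both strands, with 1 point per pool (5 control, 5 supplemented). TNF lies between 17.1 and 25.4% in every pool, and the other 5 genes at 2.22% or less.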

How the data were processed

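The authors deposited 1 gene table per pool, which holds raw read counts for each Ensembl gene, unstranded and by strand. Libraries were stranded and poly(A)-selected, per the labels' protocols. STAR 2.5.1b, HTSeq and the build UMD3.1 are named in the submitters' processing notes, without roles. The strand column with 97.6% of stranded counts was used. The 4 rows that name no gene, 36.1 to 44.2% of reads, were left out.

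Pools were grouped by title. Counts were filtered (filterByExpr, minimum 10), TMM-scaled and tested over all genes with edgeR 4.0.16 (R 4.3.3), with Benjamini-Hochberg adjustment and a threshold of 0.05. Alternatives used DESeq2 1.42.0, limma 3.58.1 and other settings. Correlations used log2 CPM (prior count 2) and 100000 permutations. The edgeR group and copper tests were also run on simulated counts, after the data had been seen. Levels came from these libraries, and the spread was the trend over expression level, not each gene's own. The outcome is not given, so these runs are no support for the results. A check for a library deposited more than once found none (chi-square over degrees of freedom between pools of a group at least 22.6), which says nothing on their independence. Intervals cover the spread between pools, and nothing says that pools came from separate herds or days. The reference table, of 37063 genes, holds 0 of the identifiers, so wider pathway lists, blood cell markers and sequences were not analysed here. All 6 genes were named whatever they showed, with the single nearest gene to each class. The members and lists were chosen with earlier results of these data known.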

Additional observations from a re-analysis of the deposited data

Results flagged for a closer look

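IL1B in control pool 2, at 258 CPM, stood apart from the other 4 control pools, which had 97.1 to 123 CPM. The gap to the nearest of them was 0.84 of the range of the group. It was the only such value in 14 groups of values examined, 12 of CPM and 2 of the opposite-strand share of TNF, and chance sets apart a pool in about 5% of groups. In the same pool TNF was at 20.3 CPM and TLR4 at 62.6 CPM. The cause was not tested.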

How the results depend on the processing

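The 6 genes had 396 alternative tests, which were refits except for 1 exact permutation test per gene, given without adjustment. Of the refits 0 passed the adjusted threshold, and the 8 alternatives under an unadjusted p of 0.05 were all for IL1B. These 8 are 2.02% of the 396, but they fall on 1 gene and reuse the same pools. In the 65 refits over all genes, 1.08 to 4.55% of genes had an unadjusted p under 0.05 in a single fit. That is a share of genes, so the 2 shares are not alike in kind. Of the 65 refits, 4 called any gene, 7 at most. The direction turned in 28 of the 396. Limma's voom gave CXCL8 a log2 fold change of -0.048 and slopes of -0.066 for CXCL8, -0.0036 for TLR4 and 0.017 for TNF given group. Copper on the linear scale (per 100) gave 0.0082 for IL1B and, given group, -0.069 for CD14 and 0.065 for CXCL8. Unstranded counts gave TNF 0.022 between groups at a given copper level. A fit with the number of the pool as replicate block gave IL1B a slope of 0.077 with 0 of the 6 genes past the threshold for group or copper. Over genes, deviations of pools with the same number correlated at -0.28 to 0.42, and only number 3 matched itself best, so the numbers were not taken as pairs.

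With 1 pool left out, values between groups ranged from -0.15 to 0.0015 for TNF, -0.014 to 0.39 for CXCL8 and 0.05 to 0.28 for CD14. Slopes ranged from -0.0079 to 0.050 for TLR4, -0.11 to 0.14 for IL1B, -0.073 to 0.027 for TNF and -0.11 to 0.12 for CXCL8. Slopes given group ranged from -0.063 to 0.11 for CD14 and -0.079 to 0.071 for TNF. Group terms at a given copper level ranged from -0.10 to 0.10 for TLR2, -0.080 to 0.43 for CD14 and -0.18 to 0.17 for TNF. The count of correlated pairs of genes ranged from 0 to 1, and so did that of relations with library measures. The cause was not tested. The coefficient of variation from counting alone was 7.98% for CXCL8 and 4.68% for TNF, and it was a larger part of the spread between pools for TNF.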
